A study of Mus musculus with 4 samples.

Results

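The genes of the cell cycle and of DNA replication were examined in the outer tissues surrounding the mouse femoral artery (FA), which consist mainly of perivascular adipose tissue (PVAT), 48 h after endovascular wire injury or sham operation. The group was a list of 52 gene symbols, of which 51 had a row among the 12661 genes of the deposited table, while the G1 kinase gene *Cdk6* had none. It held 16 genes of S phase, 19 genes of G2 and mitosis (G2/M), 10 regulators of G1 and of entry into S phase, 4 inhibitors of cyclin-dependent kinases (CDKs) and 2 polo-like kinases of the stress response, *Plk2* and *Plk3*. All animals were wild type C57BL/6 females, 11 weeks old and ovariectomized, in the sham group as in the injury group, so that neither group had intact ovaries. Each group had 2 libraries from bulk tissue, and injury was made with a spring wire 0.38 mm in diameter. Whether each library stands for a single mouse is not given in the labels, and p-values therefore measure the spread between these libraries only.

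A dividing cell passes from G1 into S phase when cyclin D and cyclin E, bound to their kinases, release the E2F transcription factors from the retinoblastoma protein, and E2F then drives the genes that license origins, build the replication fork and supply deoxynucleotides. The genes of mitosis follow later, with Cdk1 and the A- and B-type cyclins at the centre, and the CDK inhibitors hold cells back, p21 (the product of *Cdkn1a*) being the one that p53 switches on. In adult fat most cells are at rest, and dividing cells there are mainly progenitors, endothelial cells and immune cells.

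The values are signed, log-like scores that lie around 0 for most genes, and they are given here in deposited units. The base of the scale and the samples that set its centre are not stated, so no fold change is given, no level is compared between genes, and a value below 0 does not mean that a gene was silent. Read depth is not given for these libraries and its effect on precision is unknown. Adipocyte marker genes were present in the table (10 of 10 listed, among them *Adipoq* and *Plin1*), but their absolute level cannot be read from such values.

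The promoters are shown first, because members of a phase carried the same short motifs, which the choice of the list did not use. RefSeq promoter windows, from 250 bases before to 50 bases after the start of transcription, matched 41 of the 52 genes, and 40 of these were in the table of values. All windows were placed on mm9 (NCBIM37) by exact match. The E2F site was searched as TTTCCCGC, TTTGGCGC, TTTCGCGC or TTTGCCGC, the cell cycle homology region (CHR) as TTTGAA, and the CCAAT box as CCAAT, each on both strands and with overlapping matches counted once per gene. An E2F site was found in 7 of 14 S phase genes, against 2.6% of the 27025 genes of the promoter table and 1 of 16 G2/M genes. A CHR together with a CCAAT box was found in 13 of 16 G2/M genes, against 7.97% of all promoters and 1 of 14 S phase genes. The exceptions among the G2/M genes were *Bub1*, *Ccnb1* and *Birc5*. A match is a run of letters and not a measured binding site.

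**Figure D1:**
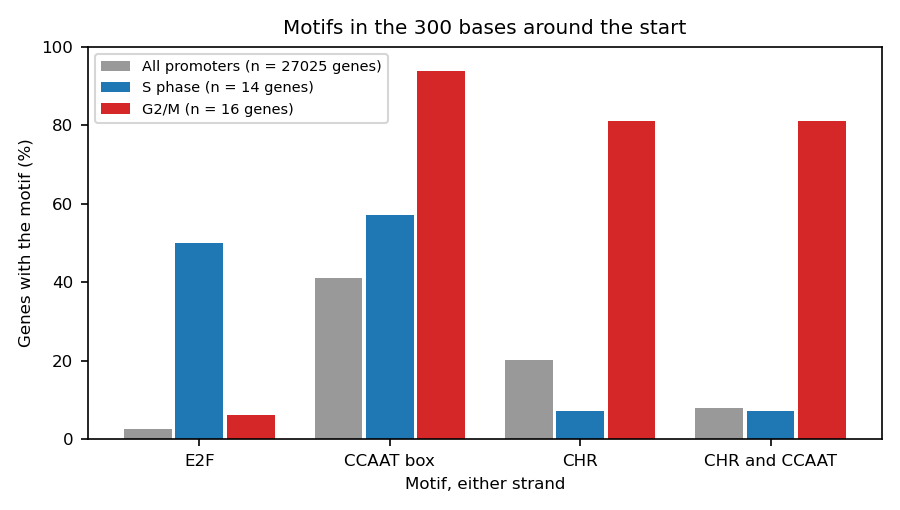
Share of genes (%) whose promoter window holds each motif on either strand, for all promoters of the table (grey), S phase genes (blue) and G2/M genes (red). The E2F bar was tallest for the S phase genes (7 of 14), and the bar for CHR with CCAAT was tallest for the G2/M genes at 81.2%, against 7.97% of all promoters.

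Examples follow, printed on the strand of the gene with the matched motifs in capitals. They are *Mcm3* and *Mcm6* for the E2F sites of S phase genes, *Mki67*, *Cdk1* and *Ccnb2* for the CHR and CCAAT boxes of G2/M genes, and *Cdkn1a* as the member called after injury. The windows lie on mm9 at chr1:20810344-20810643 (minus strand), chr1:130256233-130256532 (minus strand), chr7:142908013-142908312 (minus strand), chr10:68815611-68815910 (minus strand), chr9:70269312-70269611 (minus strand) and chr17:29227674-29227973 (plus strand).
Mcm3: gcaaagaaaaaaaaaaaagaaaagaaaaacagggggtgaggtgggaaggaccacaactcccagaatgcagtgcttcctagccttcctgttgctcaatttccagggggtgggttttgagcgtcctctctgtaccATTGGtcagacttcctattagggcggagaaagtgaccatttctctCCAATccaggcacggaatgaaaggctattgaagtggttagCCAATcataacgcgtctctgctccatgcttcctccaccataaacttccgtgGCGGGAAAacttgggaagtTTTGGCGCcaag
Mcm6: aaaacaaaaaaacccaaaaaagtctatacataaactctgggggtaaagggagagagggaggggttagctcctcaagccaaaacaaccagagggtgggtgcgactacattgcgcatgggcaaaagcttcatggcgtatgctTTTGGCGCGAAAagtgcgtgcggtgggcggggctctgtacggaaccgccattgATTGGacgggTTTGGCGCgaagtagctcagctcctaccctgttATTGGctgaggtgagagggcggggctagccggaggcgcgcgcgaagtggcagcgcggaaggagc
Mki67: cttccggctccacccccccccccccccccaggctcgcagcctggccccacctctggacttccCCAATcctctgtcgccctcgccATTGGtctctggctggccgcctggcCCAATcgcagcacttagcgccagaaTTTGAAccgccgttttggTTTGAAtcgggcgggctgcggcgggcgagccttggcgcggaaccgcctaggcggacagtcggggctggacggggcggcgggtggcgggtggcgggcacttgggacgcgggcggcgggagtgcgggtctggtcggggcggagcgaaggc
Cdk1: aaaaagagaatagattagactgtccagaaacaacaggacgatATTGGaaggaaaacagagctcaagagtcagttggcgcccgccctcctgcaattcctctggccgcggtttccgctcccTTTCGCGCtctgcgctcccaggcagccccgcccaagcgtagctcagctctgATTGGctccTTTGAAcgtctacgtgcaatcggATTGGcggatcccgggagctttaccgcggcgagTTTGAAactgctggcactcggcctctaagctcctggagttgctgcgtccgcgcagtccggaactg
Ccnb2: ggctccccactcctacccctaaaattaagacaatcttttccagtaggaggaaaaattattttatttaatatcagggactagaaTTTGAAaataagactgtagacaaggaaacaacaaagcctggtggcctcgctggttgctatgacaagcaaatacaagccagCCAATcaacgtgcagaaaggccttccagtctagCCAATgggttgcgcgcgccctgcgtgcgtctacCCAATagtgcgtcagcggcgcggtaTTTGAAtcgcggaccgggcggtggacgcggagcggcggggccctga
Cdkn1a: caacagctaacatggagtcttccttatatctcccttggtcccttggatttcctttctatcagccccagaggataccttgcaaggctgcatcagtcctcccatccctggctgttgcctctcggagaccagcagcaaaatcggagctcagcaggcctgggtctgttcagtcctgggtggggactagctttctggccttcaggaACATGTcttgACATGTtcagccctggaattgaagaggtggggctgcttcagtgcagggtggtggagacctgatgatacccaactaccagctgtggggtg

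In *Mcm6* the E2F letters occurred at 2 places on the printed strand, the upstream of them overlapping a match on the other strand. In *Cdk1* the window held an E2F match as well as CHR and CCAAT letters. The *Cdkn1a* window, around the upstream of its annotated starts, held none of these motifs. It held the core of the p53 response element, ACATGT on both sides of a gap of 4 bases, a motif that was searched after the window had been read. This pair began 49 bases before that start and was found in 4 of the 27025 genes of the promoter table (0.0148%). As the letters were read from this window, its match was fixed beforehand, and the share gives only how rare these exact letters are. Variants of the element were not searched. The window around the downstream start (chr17:29230464-29230763) held neither the pair nor any of the other motifs.

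Most cell cycle genes had overlapping values after injury and sham operation. By limma, with Benjamini-Hochberg adjustment over all 12661 genes and a threshold of 0.05, 1 of the 51 members was called higher (*Cdkn1a*) and 0 were called lower. Over all genes 7.43% were called, 3.76% higher and 3.67% lower. At an unadjusted p-value under 0.05, 7 members were higher and 3 lower, against 14.8% of all genes in each direction. In 13 members both injury libraries lay above both sham libraries and in 5 both lay below, against 31.6% and 30.3% of all genes. The groups overlapped in the other 33 members, against 4827 of the 12661 genes. The median difference over the members was 0.12, and it was -0.067 without sham replicate 1. Over all genes it was 0.01 in both cases. For 41 of the 51 members the 95% interval of the difference lay between -1 and 1 deposited unit, as it did for 9730 of the 12661 genes. Permuting the labels of 2 and 2 libraries exactly gives no p-value lower than 0.333 for any gene, so each call rests on the variance that limma shares across genes.

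**Figure D2:**
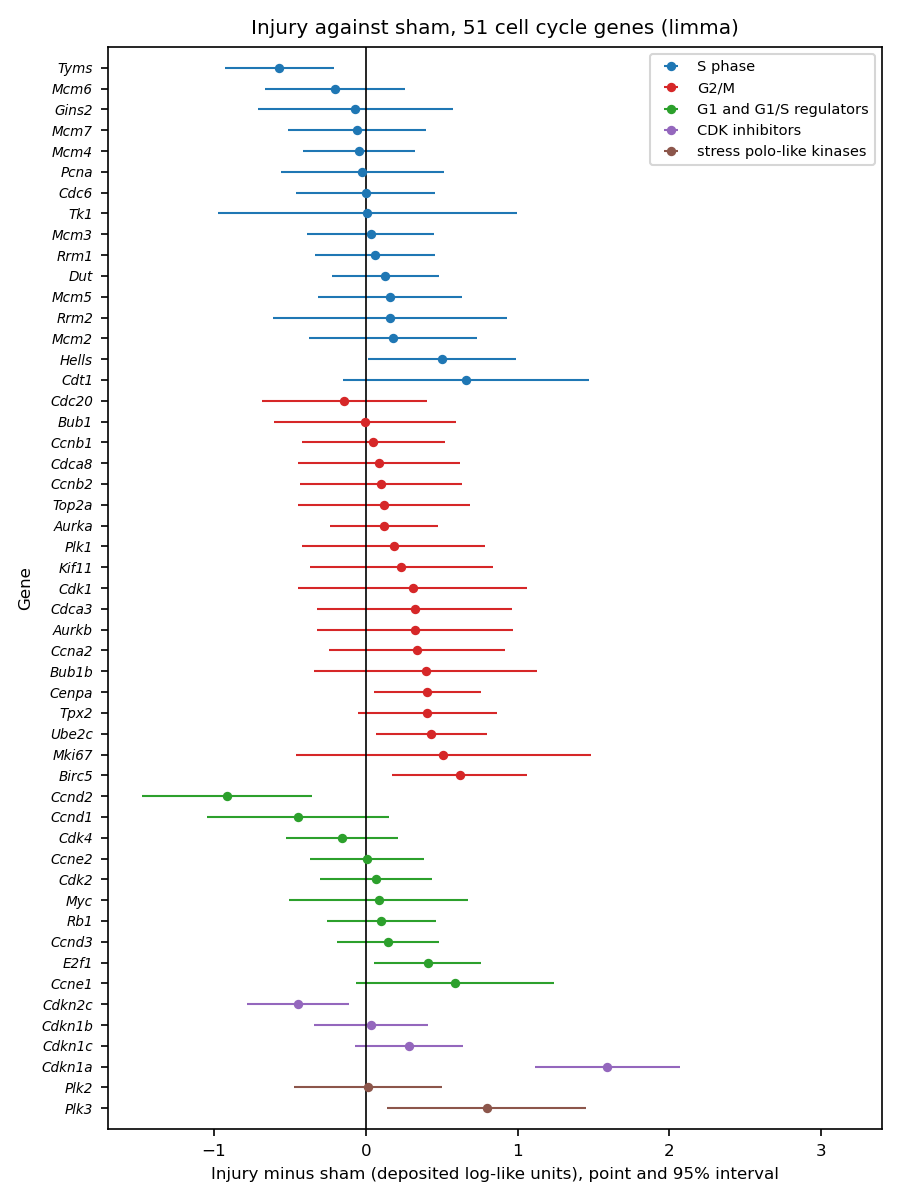
Difference between injury and sham (deposited log-like units) for each of the 51 members, with points for the estimate and bars for its 95% interval from limma, coloured by class. *Cdkn1a*, at 1.59, lies apart from the other members, whose differences run from -0.91 for *Ccnd2* to 0.80 for *Plk3*.

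Of the 4 CDK inhibitors, 1 was called. *Cdkn1a*, which encodes p21 (chromosome 17, 29227924 to 29237667 in mm9), read -0.82 and -0.49 after sham operation, whereas the injured tissue gave 0.78 and 1.09. The groups were separated by more than 1 unit, with injury replicate 2 the highest. The group means were -0.66 ± 0.24 (SD, n = 2) after sham operation and 0.93 ± 0.22 (SD, n = 2) after injury. *Cdkn1a* rose by 1.59 (standard error 0.19, 95% interval 1.11 to 2.07, adjusted p = 0.0285 from limma). Among the 476 genes called higher, 149 had a larger difference than *Cdkn1a*. Without sham replicate 1 the difference of *Cdkn1a* was 1.42 (adjusted p = 0.176 from limma), and without sham replicate 2 it was 1.76 (adjusted p = 0.113 from limma). In those fits, in which the lone sham library is assumed to vary like the others, limma called 0 and 1 of the 12661 genes, with 1960 and 2553 at an unadjusted p-value under 0.05.

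The other inhibitors were not called. *Cdkn2c*, the gene of the CDK4/6 inhibitor p18, was at -0.003 and 0.08 in the sham libraries and at -0.45 and -0.37 in the injury libraries. Both injury values lay below both sham values, and the difference was -0.45 ± 0.13 (standard error), which missed the threshold (limma adjusted p = 0.101). *Cdkn1c*, the imprinted gene of p57, was at 0.48 and 0.65 after sham operation and at 0.83 and 0.86 after injury, a difference of 0.28 (adjusted p = 0.247 from limma). *Cdkn1b*, the gene of p27, had overlapping groups, at 0.24 and 0.08 after sham operation and at 0.11 and 0.29 after injury. Its difference was 0.04, with a 95% interval of -0.34 to 0.41. That the difference of *Cdkn1a* was larger than those of the other inhibitors was not tested.

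Genes known as p53 targets were counted beside *Cdkn1a*. Of a list of 20, all in the table, none of them a member and 3 of them also among the further regulators of G1 and checkpoints described last, 0 were called by limma, while 5 were higher and 1 was lower at an unadjusted p-value under 0.05, against 14.8% of all genes in each direction. In 11 both injury libraries lay above both sham libraries and in 3 below, against 31.6% and 30.3% of all genes. The median difference was 0.21 (0.11 without sham replicate 1), and single genes ran from -0.51 to 1.55. The highest, *Pmaip1* (Noxa, a cell death gene, named after its values were seen), was at -0.24 and -1.05 after sham operation and at 1.36 and 0.44 after injury (adjusted p = 0.0716 from limma). The lowest, *Tnfrsf10b*, a death receptor gene also named after its values were seen, differed by -0.51 (adjusted p = 0.115 from limma). *Trp53*, the gene of p53 itself and likewise named after its values were seen, was at 0.25 and 0.04 after sham operation and at -0.17 and -0.41 after injury. Its difference of -0.43 was not called (adjusted p = 0.152 from limma). Macrophage markers lay higher after injury too. Of 12 macrophage genes, 6 were called higher, 10 lay higher in both injury libraries and 1 (*Cd163*) lower, and the median over the list was -1.19 and -1.02 in the sham libraries and 0.59 and -0.02 in the injury libraries. Of the 6 neutrophil genes with a row, 1 was called higher, with list medians of -1.40, -0.97, 1.27 and 0.05 in the same order. Their part in the result was not tested. In bulk tissue, a change in the number of cells of a type and a change in RNA per cell cannot be told apart.

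The polo-like kinases of the stress response, which share a kinase domain with the mitotic kinase Plk1 but respond to damage and growth signals, were not called. *Plk3* was at -0.17 and -0.33 in the sham libraries and at 0.91 and 0.18 in the injury libraries. The groups did not overlap, but injury replicate 1 was far above injury replicate 2, and the difference of 0.80 ± 0.26 (standard error) was not called (limma adjusted p = 0.120). When injury replicate 2 was left out, which leaves a lone injury library that is assumed to vary like the others, *Plk3* differed by 1.16 and was called (limma adjusted p = 0.0172), and without injury replicate 1 it was 0.43. *Plk2* had interleaved values of 0.11 and -0.13 after sham operation and of 0.21 and -0.20 after injury.

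The S phase genes gave no common direction. Of 16 genes, 9 had a difference above 0 and 7 below, the median was 0.02 (-0.03 after quantile normalization and also with columns of equal spread), and 0 were called by limma (1 higher and 1 lower at an unadjusted p-value under 0.05). The groups overlapped in 13, against 4827 of the 12661 genes. The shares over all genes were 7.43% called and 14.8% in each direction at that unadjusted p-value. The MCM genes, from *Mcm2* to *Mcm7*, encode the ring of the replicative helicase. All 6 had overlapping groups and differences between -0.20 (*Mcm6*) and 0.18 (*Mcm2*). *Mcm6* was at -0.36 and -0.19 after sham operation and at -0.27 and -0.67 after injury. *Mcm3* was at -0.33 and -0.17 after sham operation and at -0.07 and -0.37 after injury, a difference of 0.03 (95% interval -0.39 to 0.45). *Pcna*, the sliding clamp of the DNA polymerases, gave the same picture. Its values were -0.37 and 0.03 in the sham libraries and 0.003 and -0.40 in the injury libraries, so that each group held a high and a low library, and the difference was -0.02 (95% interval -0.56 to 0.52).

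*Cdc6*, which helps to load the helicase, differed by -0.002, and *Gins2*, a subunit of the GINS complex that joins the loaded helicase when origins fire, by -0.07. *Cdt1*, which brings MCM rings to origins, had the highest difference of the class, 0.66 (standard error 0.32). It was at -1.22 and -0.42 after sham operation and at 0.12 and -0.44 after injury, so the groups overlapped (adjusted p = 0.241 from limma). *Hells*, a chromatin remodeller of the SNF2 family, was at -0.98 and -0.51 after sham operation and at -0.21 and -0.29 after injury. These groups did not overlap, and the difference of 0.50 (standard error 0.19) missed the threshold (adjusted p = 0.163 from limma). The genes of deoxynucleotide supply included the only S phase gene with both injury libraries below both sham libraries. This was *Tyms*, thymidylate synthase, at -0.23 and -0.14 after sham operation and at -0.67 and -0.85 after injury. *Tyms* thus differed by -0.57 ± 0.14 (standard error; limma adjusted p = 0.0711). The other genes of deoxynucleotide supply had smaller differences. *Tk1*, thymidine kinase, was at -1.28 and -0.11 after sham operation and at -0.51 and -0.87 after injury, with both injury libraries inside the sham range, and *Rrm1*, *Rrm2* and *Dut* differed by 0.06, 0.16 and 0.13.

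The G2/M genes lay higher after injury by their means in 17 of 19 cases, with a median difference of 0.31 (0.18 after quantile normalization). Even so, 0 were called by limma, against 7.43% of all genes. At an unadjusted limma p-value under 0.05, 3 were higher and 0 lower, against 14.8% of all genes in each direction. The groups overlapped in 14, against 4827 of the 12661 genes. *Mki67*, the gene of the proliferation antigen Ki-67, was at -1.46 and -0.26 in the sham libraries and at -0.42 and -0.28 in the injury libraries. Sham replicate 1 stood alone at the bottom, and sham replicate 2 was the highest of the 4 libraries. The difference of *Mki67* was 0.51 (standard error 0.39, 95% interval -0.46 to 1.48, adjusted p = 0.433 from limma), and it was -0.09 without sham replicate 1. *Cdk1*, the kinase that drives mitosis, had the same shape, at -1.14 and -0.25 after sham operation and at -0.35 and -0.42 after injury. Its difference was 0.31 (95% interval -0.45 to 1.06).

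The mitotic cyclins gave small differences, 0.34 for *Ccna2*, 0.05 for *Ccnb1* and 0.10 for *Ccnb2*, with overlapping groups in each. *Top2a*, the topoisomerase that untangles sister chromatids, differed by 0.12, and *Kif11*, a spindle motor, by 0.23. The spindle checkpoint genes *Bub1* and *Bub1b* differed by -0.005 and 0.39. *Cdc20*, the activator of the anaphase-promoting complex, was the lowest of the class at -0.14, and its injury libraries (-0.67 and -0.69) lay between its sham libraries (-0.83 and -0.25). The mitotic kinase genes *Plk1*, *Aurka* and *Aurkb* differed by 0.18, 0.12 and 0.32, and the cell division cycle associated genes *Cdca3* and *Cdca8* by 0.32 and 0.09.

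In 5 of 19 G2/M genes both injury libraries lay above both sham libraries and in 0 both lay below, against 31.6% and 30.3% of all genes. The 5 were *Birc5*, *Tpx2*, *Cenpa*, *Ube2c* and *Aurka*. *Birc5* encodes survivin, a subunit of the chromosomal passenger complex that also restrains cell death. It was at -1.04 and -0.67 after sham operation and at -0.31 and -0.16 after injury, a difference of 0.62 (standard error 0.18, adjusted p = 0.0911 from limma). *Ube2c*, the ubiquitin-conjugating enzyme of the anaphase-promoting complex, was at -0.76 and -0.57 after sham operation and at -0.17 and -0.29 after injury, a difference of 0.43 (adjusted p = 0.127 from limma). *Cenpa*, the histone of centromeres, was at -0.82 and -0.67 after sham operation and at -0.30 and -0.38 after injury, a difference of 0.41 (adjusted p = 0.131 from limma). These 3 genes are the G2/M members under an unadjusted p-value of 0.05. *Tpx2*, which activates Aurora A on the spindle, differed by 0.41 (adjusted p = 0.209 from limma).

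**Figure D3:**
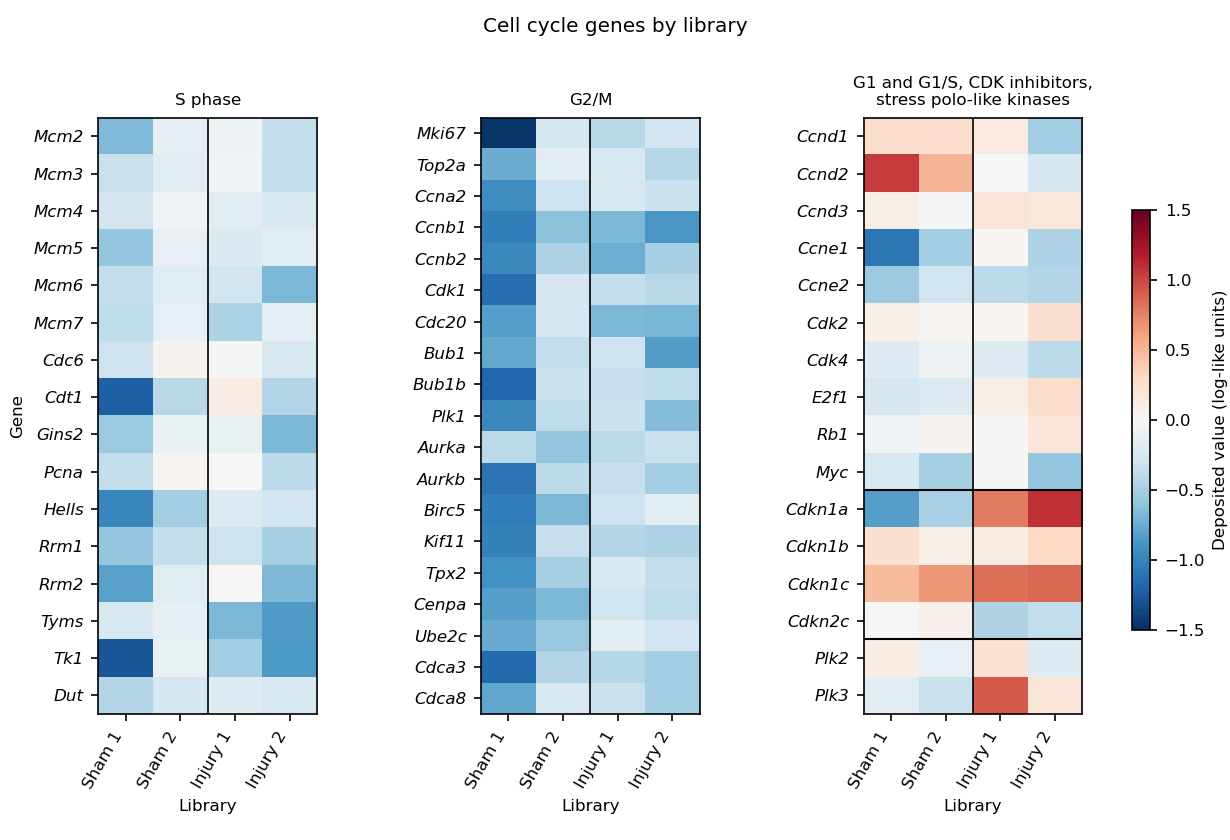
Deposited value (log-like units, colour scale from -1.5 to 1.5) of each member (rows) in the 4 libraries (columns), with sham and injury separated by the vertical line and classes by panels and, on the right, by horizontal lines. All 19 G2/M genes are below 0 in all 4 libraries and most are darkest in sham replicate 1, while *Cdkn1a* changes from blue to red.

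The sign of the G2/M class rested on a single sham library. In sham replicate 1 the median of the G2/M genes was -0.96, against -0.38 in sham replicate 2, -0.34 in injury replicate 1 and -0.43 in injury replicate 2. Sham replicate 1 held the lowest of the 4 values in 17 of 19 G2/M genes, 10 of 16 S phase genes and 4 of 10 G1 regulators, against 27.7% of all genes. Without sham replicate 1 the median difference of the G2/M genes was -0.091 and without sham replicate 2 it was 0.53. For the S phase genes the corresponding medians were -0.15 and 0.18. In 15 of 19 G2/M genes and 13 of 16 S phase genes the gap between the sham libraries was larger than the difference between the groups, as it was in 33.5% of all genes. The widest gaps were those of *Mki67* (1.20), *Tk1* (1.17), *Cdk1* (0.90) and *Bub1b* (0.87). The injury libraries were closer, with a median gap of 0.13 over the G2/M genes, against 0.57 between the sham libraries.

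Marker genes differed between the libraries of a group too, with sham replicate 1 apart from the rest in skeletal muscle markers. Skeletal muscle markers (5 of 8 listed were in the table) had a median of 0.81 in sham replicate 1 and of -0.01, -0.36 and -0.40 in sham replicate 2, injury replicate 1 and injury replicate 2. Smooth muscle and mural markers (8 of 8) were at 1.64 in sham replicate 1 and 0.92 in sham replicate 2, and at -1.35 and -0.15 after injury. These medians lay further apart between the injury libraries than between the sham libraries. Their part in the lower G2/M values of sham replicate 1 was not tested. Adipocyte markers were at 0.29 and 0.34 in the sham libraries and at -0.15 and 0.29 in the injury libraries. Of these 10 genes, 1 was called lower (*Plin1*), against 3.67% of all genes. In 5 both injury libraries lay below both sham libraries, against 30.3% of all genes, and in 5 the groups overlapped.

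**Figure D4:**
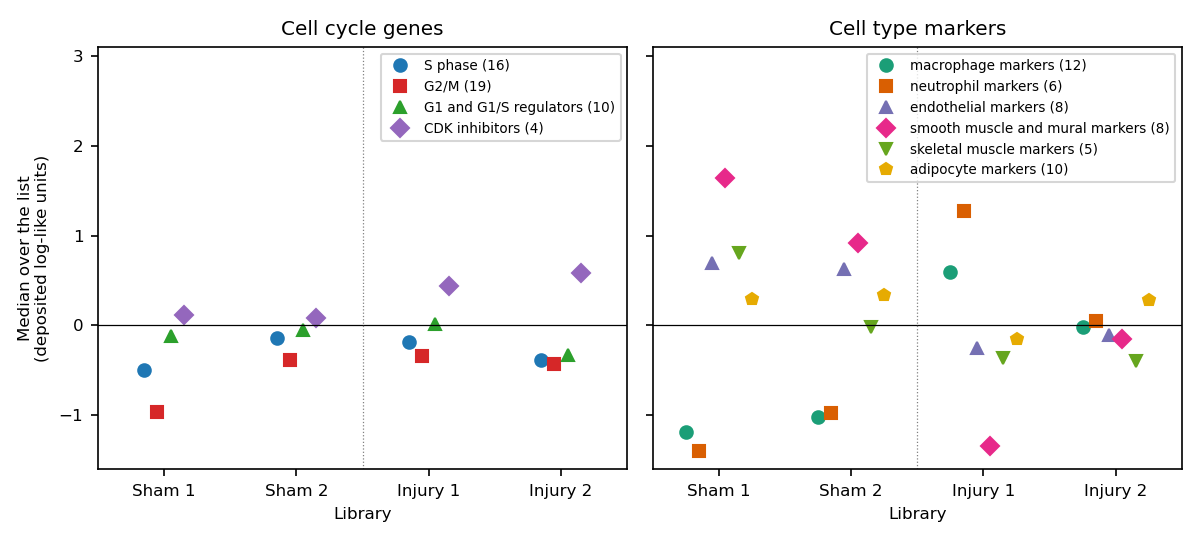
Median deposited value (log-like units) over each list in each library, for the cell cycle classes (left) and for cell type markers (right), with the number of genes in brackets and points of a library set slightly apart. The G2/M median is lowest in sham replicate 1 at -0.96, whereas macrophage markers lie near -1.19 and -1.02 in the sham libraries and higher in the injury libraries.

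All 19 G2/M genes and 13 of 16 S phase genes were below 0 in all 4 libraries, whereas 12.0% of all genes were. None of the CDK inhibitors was, and 2 of 10 G1 regulators were. What lies at 0 is not stated, so this describes the position on the scale and not the abundance of the transcripts.

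Of the 10 regulators of G1, 0 were called by limma, against 7.43% of all genes. At an unadjusted limma p-value under 0.05, 1 was higher and 1 lower, against 14.8% of all genes in each direction. The median difference was 0.08 (0.025 without injury replicate 2 and 0.033 after quantile normalization). The D-type cyclins, which carry growth signals to CDK4 and CDK6, had differences of both signs, none of them called. *Ccnd2* (chromosome 6, 127075797 to 127101066 in mm9) was at 1.05 and 0.51 in the sham libraries and at -0.004 and -0.26 in the injury libraries. With -0.91, *Ccnd2* had the lowest difference of all members (standard error 0.22, 95% interval -1.47 to -0.35), and it missed the threshold (adjusted p = 0.0670 from limma). *Ccnd1* was at 0.26 and 0.25 after sham operation and at 0.14 and -0.52 after injury, so that its difference of -0.45 came mostly from injury replicate 2 (adjusted p = 0.278 from limma). *Ccnd3* was at 0.08 and -0.02 after sham operation and at 0.19 and 0.17 after injury, a difference of 0.15. Endothelial markers (8 of 8 in the table) and the smooth muscle markers also lay lower after injury. Their median differences were -0.67 (2 called lower) and -2.10 (4 called lower). So did fibroblast and progenitor markers, with a median of -0.75 (-0.41 without sham replicate 1; 4 of 8 called lower, 3 overlapping and *Pdgfra* higher in both injury libraries), and Schwann cell markers, with a median of -0.68 (2 of 6 called lower). Skeletal muscle markers had a median of -0.74 (-0.35 without sham replicate 1), with 0 of 5 called by limma, 3 lower at an unadjusted p-value under 0.05, and both injury libraries below both sham libraries in 4. Adipocyte markers had a median difference of -0.30, with 1 of 10 called lower and a difference above 0 in 4. Over all genes 3.67% were called lower and 14.8% were lower at an unadjusted limma p-value under 0.05. Both injury libraries lay below both sham libraries in 30.3% of all genes. The part of these cell types in the values of *Ccnd2* was not tested.

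*Ccne1*, the E-type cyclin of S phase entry, was at -1.08 and -0.52 after sham operation and at 0.03 and -0.46 after injury. The groups did not overlap, and *Ccne1* differed by 0.59 ± 0.26 (standard error; limma adjusted p = 0.202). Its relative *Ccne2* differed by 0.01. *E2f1*, an activator of S phase genes, was at -0.25 and -0.21 after sham operation and at 0.09 and 0.26 after injury, a difference of 0.41 (adjusted p = 0.131 from limma). *Rb1*, the gene of the retinoblastoma protein that restrains E2F, differed by 0.10, and the kinase genes *Cdk2* and *Cdk4* by 0.07 and -0.16. *Myc*, a driver of growth and of G1 progression, was at -0.24 and -0.50 after sham operation and at 0.02 and -0.58 after injury. Both sham values of *Myc* lay between the injury values, and the difference was 0.09 (95% interval -0.50 to 0.68).

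Cell cycle genes outside the 52 were counted in the same way. For comparison, 7.43% of all genes were called, and 14.8% lay under an unadjusted limma p-value of 0.05 in each direction. Of 54 further S phase genes in the table, 0 were called by limma (4 higher and 1 lower at an unadjusted p-value under 0.05), with a median difference of 0.06 (0.031 without sham replicate 1). Of 83 further G2/M genes, 0 were called (8 higher and 1 lower at an unadjusted p-value under 0.05 from limma), with a median of 0.12. Sham replicate 1 held the lowest value in 59 of these 83 genes, and without it their median difference was -0.04. Of 49 further regulators of G1 and of checkpoints, 0 were called (7 higher and 3 lower at an unadjusted p-value under 0.05 from limma), with a median of 0.15. In these 49 genes both injury libraries lay above both sham libraries in 23 and below them in 12, against 31.6% and 30.3% of all genes. The same counts were 17 and 6 in the 54 S phase genes and 19 and 5 in the 83 G2/M genes. The lowest adjusted p-value over these lists was that of *Btg1*, an anti-proliferative gene named after its values were seen. It was at -0.26 and -0.16 after sham operation and at 0.50 and 0.38 after injury (difference 0.65, adjusted p = 0.0535 from limma).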

How the data were processed

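RNA from the 4 samples (480 ng each) was made into stranded mRNA libraries. Per the submitters' processing notes and the methods, the authors used FastQC, Cutadapt 1.18, Trimmomatic 0.39, STAR 2.6.0a on mm9, featureCounts and DESeq2 1.28.0. The deposited values are signed, log-like scores for 12661 genes. How they were derived from read counts is not stated, so count tests, low-expression filters and depth could not be used.

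Injury was compared with sham by limma 3.58.1 (R 4.3.3; lmFit, eBayes, group as the only term), with Benjamini-Hochberg adjustment over all genes. The method was tested on simulated data. Members and gene lists were chosen with earlier results of these data known. All members are accounted for. Values of all 4 libraries are given for called members, for those with the largest differences in a class, and for *Mki67*, *Pcna*, *Cdk1* and *Cdkn1a*. Gene positions are from GENCODE on NCBIM37 (the assembly of mm9). Promoter sequences are from RefSeq (GRCm38.p6), placed on NCBIM37 by exact match. Alternatives tried were leaving out each library, a block on replicate number, quantile normalization, columns of equal spread, a robust prior, identical rows counted once and other thresholds.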

Additional observations from a re-analysis of the deposited data

How the results depend on the processing

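Over all genes limma made 941 calls, which became 2317 at an adjusted p-value under 0.1 and 591 with a minimum difference of 1 unit. With a library left out it ran from 0 to 1790, with the fewest calls without sham replicate 1 (0), sham replicate 2 (1) and injury replicate 1 (284), and the most without injury replicate 2. Of the 51 members, 1 was called higher (0 to 2 with a library left out, 2 at an adjusted p-value under 0.1) and 0 lower (2 at 0.1). At that threshold 1 further S phase gene, 3 further G2/M genes, 3 further regulators of G1 and checkpoints and 3 p53 targets were called. Of these lists, quantile normalization gave 1 regulator and 1 p53 target, columns of equal spread 2 regulators and 1 p53 target, and the replicate block 1 p53 target. With a library left out the counts ran from 0 to 1 for further G2/M genes, 0 to 6 for regulators and 0 to 4 for p53 targets. The median difference of the G2/M genes ran from -0.091 (without sham replicate 1) to 0.53. Of the 51 members, 22 kept the sign of their difference under all 9 refits and 18 lost it only when a library was left out. Among the refits, the replicate block, the robust prior and identical rows counted once leave each difference unchanged and could not alter a sign. *Cdkn1a* was called in every fit to all 4 libraries, with an adjusted p-value from limma of 0.0227 to 0.0358.

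Replicate numbers do not mark pairs in the labels, and deviations of the same-numbered libraries correlated at -0.094 over 12661 genes. With the replicate block 684 genes were called, and 1 member, *Cdkn1a*, was called higher. Depth is unknown, so what it limits cannot be stated, and the cause of the changes with single libraries was not tested.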
